A study of Drosophila melanogaster with 18 samples.

Results

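The cytoplasmic ribosomal protein genes of Drosophila were described here in cultured ovarian somatic cells (OSCs), which were derived from follicle cells of the ovary. The genes were chosen by name: every gene whose FlyBase symbol begins with RpL or RpS, with the capital R, which leaves out the mitochondrial ribosomal proteins. This gave 92 genes of 16956 features (genes and transposon families), 54 named for the large ribosomal subunit and 38 for the small one, with 231 annotated transcripts. RNA was sequenced in cells 2 days after RNA interference against piwi, mael or brm, and in control cells treated against EGFP, a jellyfish gene used as a control target. DNA bound by Brm, Polybromo and Osa was sequenced by ChIP in Piwi knockdown cells and in control cells. Brm and Polybromo shared 1 input library per condition and Osa had its own. All cells grew in an insect medium with serum, insulin and fly extract. With 1 library in every group, differences cannot be set against replicate error, and no test or p-value is given.

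A ribosome is built from ribosomal RNAs and one copy of nearly every ribosomal protein. The proteins of the large subunit surround the peptidyl transferase centre and the exit tunnel of the new chain, and those of the small subunit surround the decoding site. In animals the genes for these proteins are among the most strongly transcribed, many use a TCT-type start site, and their transcripts are short. In flies most ribosomal proteins come from 1 gene, loss of 1 copy of many of them gives the slow-growing Minute phenotype, and several have a second gene that is used mainly in the germline. The knocked-down genes act on transposons and chromatin: Piwi, an Argonaute protein, uses piRNAs to silence transposons in the nucleus, and Maelstrom (Mael) acts with it. Brahma (Brm) supplies the ATPase activity of the fly SWI/SNF remodelling complexes, of which Osa marks the BAP form and Polybromo the PBAP form.

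The RNA libraries held 8965485 reads for the Piwi knockdown, 9498401 for Mael, 4865534 for Brm and 8983374 for EGFP. The targeted genes were low in the libraries labelled for them: piwi had 11 RPKM (reads scaled to transcript length and to library size) against 81.5 in EGFP cells, mael had 4.2 against 14.5, and brm had 0.54 against 6.66. Of 8 markers of the ovarian somatic lineage, 7 had at least 5 RPKM in EGFP cells, among them the transcription factor tj with 93.3 RPKM. Of 7 germline markers matched, krimp and spn-E had 54.8 and 10.2 RPKM in EGFP cells, and the other 5, which include vas, aub and osk, had at most 2 RPKM in each RNA library. Markers of hemocytes, fat body, muscle and neurons summed to at most 5.91, 0.653, 2.18 and 2.84 RPKM per library. The somatic markers summed to 263.5 RPKM in the Piwi, 255.9 in the Mael and 166.5 in the Brm knockdown, against 313.5 in EGFP cells, and piwi itself is one of them. Because these are bulk samples, fewer cells of a type and less RNA per cell cannot be told apart.

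The 92 genes held a large share of the RNA reads on the listed transcripts and transposon families, which are the totals used here. They took 41.17% of the reads in the Piwi knockdown (95% Clopper-Pearson interval 41.12 to 41.21), 46.85% in the Mael knockdown (46.80 to 46.89), 43.74% in the Brm knockdown (43.68 to 43.80) and 42.29% in EGFP cells (42.24 to 42.33). The share was highest in the Mael library and lowest in the Piwi library, and the intervals cover counting error only. Transposon reads differed between the libraries too, at 13.1% in the Piwi, 10.9% in the Mael and 19.9% in the Brm knockdown, against 11.9% in EGFP cells. The retrotransposon copia alone took 18.1% of the reads in the Brm library, against 7.96% in the EGFP library. Of the reads off transposons, ribosomal protein genes took 47.4% in the Piwi, 52.6% in the Mael and 54.6% in the Brm knockdown, against 48.0% in EGFP cells. On that count the Brm library stood highest. Large-subunit genes had 1.611 (Piwi), 1.627 (Mael) and 1.695 (Brm) times the reads of small-subunit genes, against 1.603 times in EGFP cells.

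Levels within the set fell into a large high group and a small low one. In EGFP cells 80 genes had at least 1000 RPKM, 48 of the large and 32 of the small subunit, and their levels ran over 1534 to 29334 RPKM with a median of 7056. Ribosomal protein genes made up 47 of the 50 features with the highest level and 64 of the 67 features of at least 5000 RPKM. The medians of the 48 large-subunit and 32 small-subunit genes, 6955 and 7159 RPKM, lay close together. The large-subunit genes reached further up, since no small-subunit gene exceeded 10964 RPKM.

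RpL41 (chromosome arm 2R, 24903416 to 24903935 in Release 6), which codes for the shortest ribosomal protein, had 27350 RPKM in the Piwi, 20842 in the Mael and 29700 in the Brm knockdown, against 29334 in EGFP cells. It was lowest in the Mael library. RpL36A (arm 2L, 8041873 to 8042909), a large-subunit protein near the exit site of the tRNA, had 25353, 20517 and 29451 RPKM in the Piwi, Mael and Brm knockdowns, against 22127 in EGFP cells. RpL12, a protein of the stalk base, had 14725, 15794 and 15289 RPKM in the Piwi, Mael and Brm knockdowns, against 14257 in EGFP cells. RpL31, which lies beside the exit tunnel, had 14715, 16425 and 14270 RPKM in the same knockdowns, against 13693 in EGFP cells. Both were highest in the Mael library and lowest in the EGFP library. RpLP2, an acidic protein of the stalk that recruits elongation factors, had 14197 RPKM in the Piwi, 18548 in the Mael and 12267 in the Brm knockdown, against 13513 in EGFP cells. RpL12 and RpL39 overlap by 8 bases on the map, so a few reads could belong to either.

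**Figure D1:**
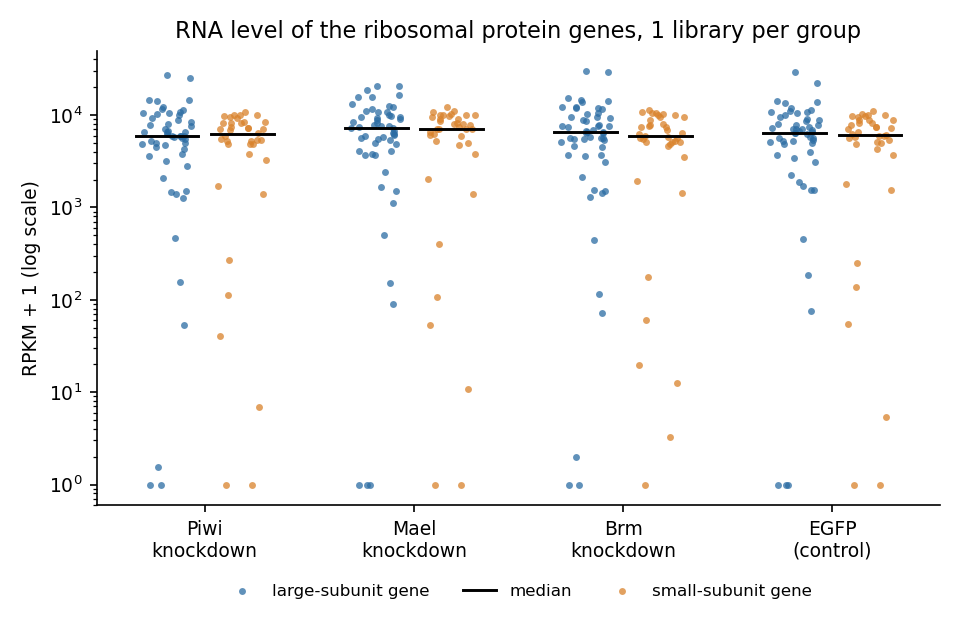
RNA level (RPKM + 1, log scale) of the 92 ribosomal protein genes in the Piwi, Mael and Brm knockdown and EGFP libraries, with a point for each gene, blue for the large and orange for the small subunit, and a black line at the median of each. In every library 80 genes lie above 1000 RPKM, and the genes at the bottom are listed at or near 0.

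The low group held 12 genes, and all of them have a partner gene or a related name among the high ones. The set has 13 families of 2 or 3 related genes. In 11 of the 13 the leading gene had over 90% of the family's summed RPKM in EGFP cells. The exceptions were RpS14, where RpS14a had 74.5% in the Piwi, 78.5% in the Mael and 75% in the Brm knockdown, against 74% in EGFP cells, and RpL34, where RpL34b had 81.2%, 85.3% and 80.9% in those knockdowns, against 80.5% in EGFP cells. In both families the leading gene's share was highest in the Mael library. RpS14a and RpS14b are neighbours on the X chromosome with 220 bases between them, and how reads that match both copies were assigned is not given in the sources used here, so the split within such families is uncertain.

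Of the low genes 5 were listed at 0 in EGFP cells: RpL10Aa, RpL22-like, RpL37-2, RpS28a and RpS28-like. A count of 0 allows up to 3 read pairs in a library, where 2 reads count as 1 pair. RpL10Aa, RpL22-like and RpS28a were listed at 0 in all 4 RNA libraries. RpL37-2 had 2 reads in the Piwi, 0 in the Mael and 2 in the Brm knockdown, and RpS28-like had 4 reads in the Brm knockdown and 0 elsewhere. Their partners were among the high genes, with RpS28b at 10964, RpL10Ab at 5714, RpL37-1 at 5189 and RpL22 at 3656 RPKM in EGFP cells. RpL22-like is known from the fly male germline.

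The other 7 low genes were measured in every RNA library. RpL24-like, RpLP0-like and RpL7-like are named for a likeness: their yeast counterparts are ribosome assembly factors. RpL24-like had 465, 503 and 442 RPKM in the Piwi, Mael and Brm knockdowns, against 458 in EGFP cells. RpLP0-like had 153, 151 and 114 RPKM in those knockdowns, against 184 in EGFP cells, where it was highest. RpL7-like had 52.3, 88.2 and 70.3 RPKM in the Piwi, Mael and Brm knockdowns, against 75.1 in EGFP cells.

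The remaining 4 are second genes for a small-subunit protein, and RpS5b, RpS10a and RpS19b are known for their use in the fly germline. RpS5b (arm 3R, 14900432 to 14901563) had 271, 401 and 174 RPKM in the Piwi, Mael and Brm knockdowns, against 248 in EGFP cells. It was highest in the Mael library and lowest in the Brm library. RpS15Ab (arm 2R, 10821676 to 10822399) had 113, 107 and 59.0 RPKM in the Piwi, Mael and Brm knockdowns, against 135 in EGFP cells.
RpS19b (arm 3R, 23932729 to 23933530) had 39.4, 52.8 and 18.6 RPKM in the same knockdowns, against 53.1 in EGFP cells, from 234, 332, 60 and 316 reads. RpS15Ab and RpS19b were both lowest in the Brm library. RpS10a (arm 3R, 27652760 to 27653363) had 5.91, 9.94 and 11.6 RPKM in the Piwi, Mael and Brm knockdowns, against 4.42 in EGFP cells, from 32, 57, 34 and 24 reads, and was lowest in the EGFP library.

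**Figure D2:**
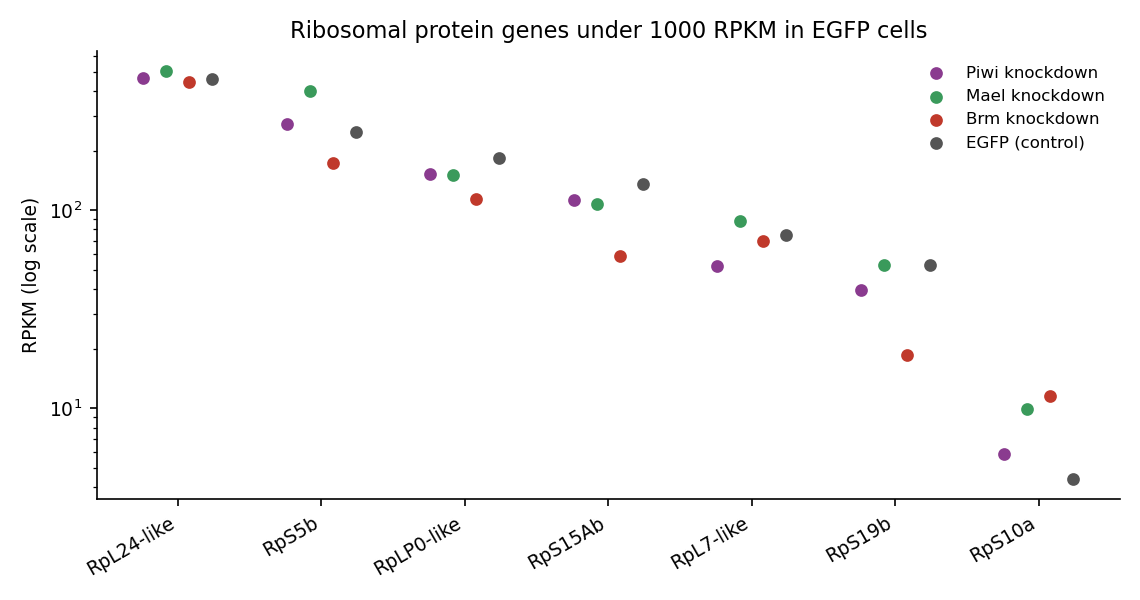
RNA level (RPKM, log scale) of the 7 ribosomal protein genes with under 1000 RPKM but above 0 in EGFP cells, with a point for each library (Piwi, Mael and Brm knockdown, then EGFP). RpS19b and RpS15Ab are lowest in the Brm knockdown at 18.6 and 59.0 RPKM, and RpS10a has its highest value there at 11.6 RPKM.

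Knockdown and EGFP libraries were compared as the difference of log2(RPKM + 1), for features with a mean of at least 5 RPKM over the pair. That difference was centred on the median of all such features, which was -0.04 for the Piwi, -0.12 for the Mael and -0.34 for the Brm knockdown, and the pseudocount of 1 makes changes of low genes look smaller. Of the 92 genes, 87 passed this floor in each comparison. RpS10a passed it through the knockdown libraries, where it was higher. A gene was called higher or lower when it differed by 2-fold on the centred scale, and intervals are 95% intervals of the ratio of read pairs.

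In the Piwi knockdown the set stayed at the level of the median feature. The centred log2 ratio had a median of -0.01 over the 87 genes, and 39 of them lay above 0. None of the 87 passed 2-fold, where 1.25% of 5357 tested features were higher and 0.411% were lower. None passed 1.5-fold either, beside 6.25% of features higher and 2.84% lower at that size. Of the 588 other features of at least 100 RPKM, 10 were higher and 6 were lower at 1.5-fold. Over the 80 highly expressed genes the SD of the ratio was 0.10, against 0.29 over the 588 other features of at least 100 RPKM. At the top stood RpS10a at 0.39, on few reads, RpL36A at 0.24 (0.22 to 0.25), RpS5b at 0.17, RpL17 at 0.16 and RpL31 at 0.14. At the bottom stood RpL7-like at -0.48 (-0.71 to -0.25), RpS19b at -0.38 (-0.75 to -0.04), RpL5 at -0.34 (-0.36 to -0.29), RpL21 at -0.28 and RpL10 at -0.26. RpL5 binds the 5S ribosomal RNA, and RpL10 joins the large subunit late in its assembly.

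In the Mael knockdown most of the set lay above the median feature, and the genes spread more widely than in the Piwi comparison. The median was 0.24 on the centred scale and 0.12 as deposited, 75 of the 87 genes lay above 0 on the centred scale, and the 588 other features of at least 100 RPKM had a median of -0.05. Only RpS10a passed 2-fold higher, at 1.13 (0.27 to 2.40), and none passed lower, beside 0.699% of 5292 tested features higher and 0.302% lower. RpS10a had 4.42 RPKM in EGFP cells, under the floor, and was tested only through its higher value in the knockdown. At 1.5-fold 14 of 87 genes were higher and none was lower, beside 4.37% and 2.12% of features. Of the 588 other features of at least 100 RPKM, 12 were higher and 7 were lower at that size. Over the 80 highly expressed genes 12 were past 1.5-fold and the SD of the ratio was 0.27, against 0.10 in the Piwi comparison, which shares the EGFP library. Over the 588 other features of at least 100 RPKM the SD was 0.27 in the Mael and 0.29 in the Piwi comparison. The spread of the set in the Mael comparison was thus that of these other features.

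RpL4 (arm 3R, 27922821 to 27924888), which reaches into the exit tunnel, had 3820 RPKM in the Mael knockdown, against 2227 in EGFP cells. Its centred log2 ratio was 0.90 (0.87 to 0.93). RpL13A (arm 3R, 5624474 to 5625947), known in mammals for a role outside the ribosome in translational silencing, had 9783 RPKM in the Mael knockdown, against 5718 in EGFP cells, a ratio of 0.90 (0.87 to 0.92). In the Piwi knockdown RpL4 had 2107 RPKM, a ratio of -0.04, and RpL13A had 5694 RPKM, a ratio of 0.03. RpS5b followed at 0.81 (0.70 to 0.93) and RpS10b, the main gene for a protein at the mRNA entry side, at 0.78 (0.75 to 0.80), with 7931 RPKM in the Mael knockdown, against 5024 in EGFP cells. RpL35A had 4856 RPKM against 3111, a ratio of 0.76 (0.72 to 0.80). The other genes past 1.5-fold were RpS14a, RpS21, RpL8, RpS19a, RpL23A, RpL18, RpL24 and RpL34b, at ratios between 0.60 and 0.66.

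At the other end of the Mael comparison were genes with fewer RPKM than in EGFP cells. RpL41 stood at -0.37 (-0.39 to -0.35). RpL21 had 5407 RPKM in the Mael knockdown, against 7472 in EGFP cells, a ratio of -0.35 (-0.38 to -0.32). RpL38, which in mouse is needed for translation of certain Hox messages, had 1118 RPKM against 1536, a ratio of -0.34 (-0.41 to -0.28). RpL15 at -0.27 and RpL39 at -0.24 followed. The highest and the lowest well-measured genes of the set thus differed by over 2-fold in their ratio. Their counting intervals were narrow, but replicate error is unknown. RpL41 and RpL39 have the shortest transcripts of the highly expressed genes, at 320 and 288 bases. Over 80 genes, Spearman's rho of the ratio with the longest transcript was -0.31 in the Piwi, 0.20 in the Mael and -0.08 in the Brm comparison. A part of transcript length in the ratios was not tested.

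In the Brm knockdown the deposited levels of the set were close to those in EGFP cells, while the median feature was lower. The median ratio of the 87 genes was -0.01 as deposited, with 42 of 87 above 0. Relative to the median feature, itself at -0.34, it was 0.33, with 82 of 87 above 0, beside -0.03 over the 588 other features of at least 100 RPKM. With transposon reads taken out of the library totals and no centring, the median was 0.13, a value chosen for calculation after the data were seen. RpS10a passed 2-fold higher at 1.55 (0.57 to 2.92) and RpS19b passed 2-fold lower at -1.13 (-1.79 to -0.61), beside 3.86% of 5083 tested features higher and 4.13% lower. Here too RpS10a was under the floor in EGFP cells and was tested only through its higher value in the knockdown. At 1.5-fold 7 of 87 were higher and 2 were lower, beside 12.1% and 13.6% of features. Of the 588 other features of at least 100 RPKM, 40 were higher and 59 were lower at that size.

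The 80 highly expressed genes were close together in the Brm comparison, with an SD of 0.16, and 79 of the 80 lay above 0. The other features of at least 100 RPKM, which have a lower cut-off and include transposon families, had an SD of 0.52. RpL36A was at 0.75 (0.73 to 0.77). RpL18 had 14521 RPKM in the Brm knockdown, against 11087 in EGFP cells, a ratio of 0.72 (0.70 to 0.75), and RpL17, a protein lining the exit tunnel, had 11862 RPKM against 9159, a ratio of 0.71 (0.69 to 0.73). RpL3, at the peptidyl transferase centre, was at 0.67 and RpL19, which forms a bridge to the small subunit, was at 0.61. All 6 highly expressed genes past 1.5-fold belong to the large subunit. RpL5 was the single highly expressed gene under 0, with 1284 RPKM in the Brm knockdown, against 1905 in EGFP cells, a ratio of -0.23 (-0.28 to -0.18). Among the low genes RpS15Ab was at -0.85 (-1.18 to -0.55) and RpLP0-like at -0.35 (-0.56 to -0.15).

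**Figure D3:**
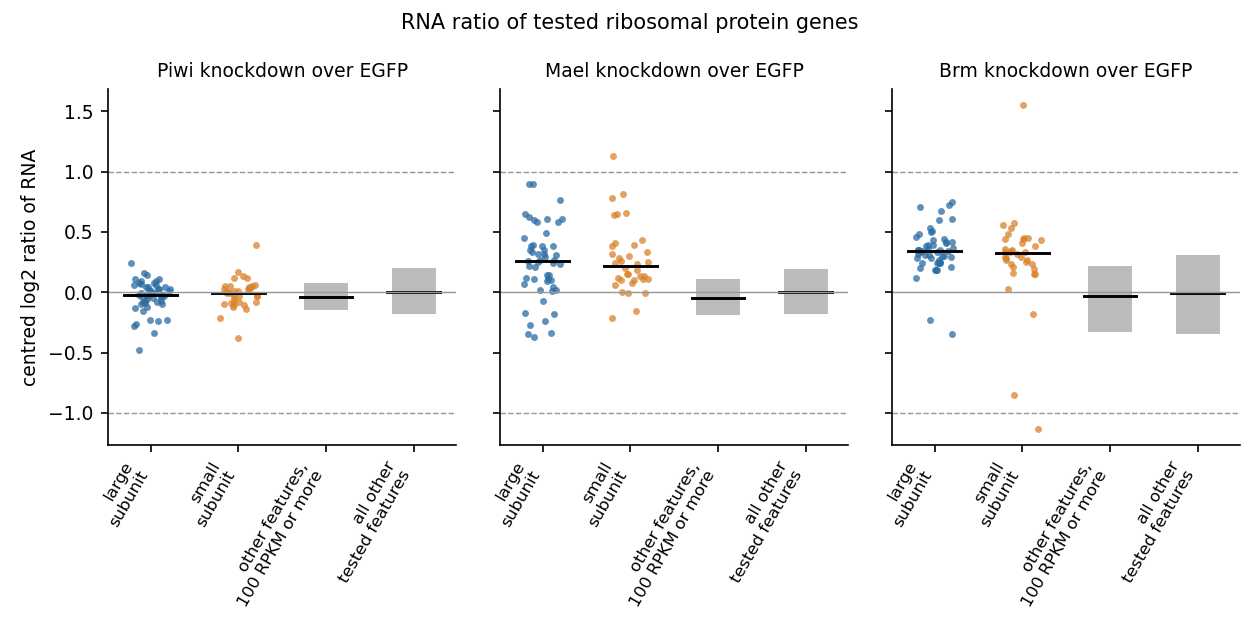
Centred log2 ratio of RNA in the Piwi, Mael and Brm knockdowns over the EGFP library, with a point for each tested ribosomal protein gene and a black line at each median, beside grey boxes from the lower to the upper quartile of other features. Dashed lines mark 2-fold; the medians of all 87 genes are -0.01, 0.24 and 0.33, and the medians of other features of at least 100 RPKM are -0.04, -0.05 and -0.03.

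Large-subunit and small-subunit genes of at least 1000 RPKM had medians of -0.02 and 0.00 in the Piwi, 0.26 and 0.21 in the Mael and 0.35 and 0.33 in the Brm comparison. Ribosomal protein introns are known to hold small nucleolar RNAs, which guide the modification of ribosomal RNA: 74 of the 273 snoRNA genes in the annotation lie within 28 of these genes, all 28 among the highly expressed ones, with 14 inside RpS5a and 7 inside RpS7. The 28 hosts had medians of -0.05, 0.22 and 0.35 in the Piwi, Mael and Brm comparisons, and the 52 highly expressed genes without a snoRNA had -0.01, 0.25 and 0.34.

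The pattern of the cytoplasmic set was set beside that of other genes for translation. The 73 mitochondrial ribosomal protein genes had median ratios of -0.07, -0.01 and -0.02 in the Piwi, Mael and Brm comparisons, with none past 2-fold. Their share of reads was 0.534%, 0.506% and 0.459% in the knockdowns, against 0.556% in EGFP cells. The small-subunit proteins that are named otherwise were not members: sta had 10336, 14640 and 9048 RPKM in the Piwi, Mael and Brm knockdowns, against 10559 in EGFP cells, and Rack1 had 2344, 3274 and 2314 RPKM, against 2643. Both were highest in the Mael library, at ratios of 0.59 and 0.43.

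Of 28 translation initiation factors 27 were tested, with medians of -0.09, 0.06 and 0.21 in the Piwi, Mael and Brm comparisons and none past 2-fold. Of 9 elongation and release factors 8 were tested, with medians of -0.15, -0.18 and 0.18 and none past 2-fold. eEF1alpha1, which brings aminoacyl-tRNA to the ribosome, had 4930 RPKM in the Brm knockdown, against 8523 in EGFP cells, a ratio of -0.45. Ribosome assembly and nucleolar factors (32 genes) had medians of -0.14, 0.05 and 0.14, again with none past 2-fold, and Sbds, which acts in the last steps of large-subunit maturation, was highest in the Brm comparison at 0.98 with 146.9 RPKM, against 93.8 in EGFP cells. The 20 tested genes of RNA polymerases I and III had medians of -0.08, -0.04 and 0.11, and only udd passed 2-fold, at 2.53 in the Piwi comparison with 1602 RPKM, against 284.2 in EGFP cells. Among 14 regulators of ribosomal protein genes and their translation, of which 10 or 11 were tested, Myc, a growth regulator, was the single gene past 2-fold, with 12.0 RPKM in the Brm knockdown, against 5.38 in EGFP cells, a ratio of 1.36. The medians of that list were 0.41, 0.14 and -0.02 in the Piwi, Mael and Brm comparisons, with 8 of 11, 10 of 11 and 5 of 10 genes above 0. The counts of these lists are read against the same shares of features called as above.

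In ChIP the listed features are transcripts, so the values cover gene bodies and not promoters as such. Enrichment was taken as the log2 ratio of each ChIP to its input, with a small offset on both, relative to the median of features whose mean input was at least that of the median feature. Where a count is 0, as in the control input of RpS30 and in several Osa values, the value of a gene depends on the offset and is no measured fold. ChIP and input totals ran over 475226 to 2779826 reads. A ribosomal protein gene had a median of 12 reads in the Brm ChIP of Piwi knockdown cells and 24 in that of control cells, and 5 and 7 reads in their inputs, so single genes were measured poorly and reads pooled over the set carry most of the information.

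Pooled over the 92 genes, the Brm ChIP had 1234 reads and its input 557 in Piwi knockdown cells, and 2785 and 694 in control cells. Relative to all listed features, the log2 enrichment was 1.05 in Piwi knockdown cells (0.90 to 1.19) and 0.97 in control cells (0.85 to 1.09), and the change between them was 0.08 (-0.11 to 0.27). Pooled in the same way, the 588 other features of at least 100 RPKM of RNA had 0.80 (0.78 to 0.81) in Piwi knockdown cells and 0.55 (0.53 to 0.56) in control cells. Those features include transposon families, and pooling gives most weight to features with many reads. Feature by feature, the 324 of the 588 that passed the input floor had medians of 0.52 and 0.56 and a median change of -0.08. The mitochondrial ribosomal protein genes had pooled values of 0.37 (0.19 to 0.55) and 0.52 (0.38 to 0.67). Gene by gene, 47 of the 92 passed the input floor, 19 of these 47 were enriched 2-fold in control cells, beside 6.26% of 8478 features, and their median was 0.80 in Piwi knockdown and 0.91 in control cells. The median change over the 47 was -0.28, opposite in sign to the pooled change. Beside that count, 26.5% of the other features of at least 100 RPKM of RNA that passed the floor were enriched 2-fold.

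The direction of the Brm enrichment depended on the input. Ribosomal protein genes held 0.049% of the reads in the Piwi knockdown and 0.0519% in the control input of Brm and Polybromo, but 0.12% and 0.149% in the Osa inputs. Set against the Osa inputs, the same pooled Brm reads gave -0.13 (-0.28 to 0.01) in Piwi knockdown and -0.27 (-0.36 to -0.18) in control cells, so the direction turned. The pooled reads of the other features of at least 100 RPKM, in which features with many reads weigh most, stayed above 0 with either input. With the Osa inputs they were at 0.30 (0.27 to 0.32) and 0.43 (0.41 to 0.45). Each input is 1 library, and the part that either one has in the result was not tested.

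Among the 47 genes that passed the input floor, the highest Brm enrichment in control cells was that of RpS28a at 2.26 (0.65 to 5.79), a gene with no RNA reads, followed by RpS30 at 2.2 with 10 ChIP and 0 input reads, RpL38 at 2.07 (1.08 to 4.08), RpL30 at 2.00 (0.67 to 4.12) and RpL28 at 1.94 (1.17 to 3.49). RpL28 had 30 ChIP and 13 input reads in Piwi knockdown cells, and 71 and 8 in control cells. RpL38 had 16 and 8 reads in Piwi knockdown cells, and 50 and 5 in control cells. The lowest of the 47 were RpS15Aa at -0.22, RpS10a at -0.14, RpS27A at -0.04, RpS5b at -0.02 and RpL7A at 0.06, all with intervals that include 0. Across 42 highly expressed genes that passed the floor, Spearman's rho of the Brm enrichment was -0.03 with the RNA level in EGFP cells, -0.10 with the RNA ratio in the Brm knockdown and 0.37 with the Polybromo enrichment, which shares the input.

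On Piwi knockdown 4 of the 47 genes passed 2-fold higher in Brm enrichment and 3 passed lower, beside 6.38% and 8.24% of features. RpL7A at 2.08, RpS15Aa at 1.58 and RpS2 at 1.16 had the highest changes, and RpS30 at -1.84, RpL34a at -1.27 and RpL38 at -1.09 had the lowest. For RpL7A the Brm ChIP had 16 reads in Piwi knockdown and 28 in control cells, and the input had 2 and 14 reads, so the change lay mainly in the input reads. The same input serves Polybromo, where RpL7A and RpS15Aa again had high changes.

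Polybromo was less enriched over the set. Its pooled log2 enrichment was 0.55 (0.40 to 0.70) in Piwi knockdown cells, from 935 reads, and 0.32 (0.16 to 0.48) in control cells, from 659 reads. The change was 0.23 (0.01 to 0.44), beside 0.28 over the pooled reads of the other features of at least 100 RPKM. The median change over the 324 of those features that passed the input floor was 0.13. Small-subunit genes of at least 1000 RPKM had 0.70 (0.45 to 0.96) in Piwi knockdown and 0.14 (-0.12 to 0.39) in control cells, and large-subunit genes had 0.45 (0.24 to 0.65) and 0.50 (0.28 to 0.71); the difference between the subunits was not tested. With the Osa inputs the small-subunit genes had -0.72 in Piwi knockdown and -0.88 in control cells, and the large-subunit genes had -0.51 and -0.97, so the subunit with the larger change was the other one. The set's pooled value with those inputs was -0.63 (-0.78 to -0.48) in Piwi knockdown and -0.92 (-1.05 to -0.78) in control cells, and the change was 0.29, beside -0.11 over the other features of at least 100 RPKM.

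Of the 47 genes, 6 were enriched 2-fold by Polybromo in control cells, beside 5.38% of features, and 16 were in Piwi knockdown cells, beside 8.03% of features. The share in control cells was 12.8% of the ribosomal protein genes, against 15.1% of the other features of at least 100 RPKM of RNA that passed the floor. In Piwi knockdown cells 77 of these 324 other features were enriched 2-fold, as were 7 of the 38 mitochondrial ribosomal protein genes that passed. RpS28a at 1.76, RpL38 at 1.61, RpL28 at 1.49, RpS21 at 1.36 and RpL37A at 1.33 stood highest of the 47 in control cells. RpS13 at -0.97, RpL23 at -0.64, RpS25 at -0.60 and RpS10a at -0.51 were among the lowest, each with at most 3 ChIP reads. The change on Piwi knockdown passed 2-fold higher in 6 genes and lower in 2, beside 8.72% and 9.21% of features. It was highest for RpS15Aa at 2.13, RpL7A at 1.87 and RpL9 at 1.53, and lowest for RpL34a at -1.34, RpL12 at -1.27 and RpL37A at -1.0. The median change over the 47 was 0.29.

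Osa values were the most scattered. Over all features that passed the floor, the quartiles of the control enrichment were -0.96 and 0.95 for Osa, against -0.32 and 0.37 for Brm. Of the 92 genes 78 passed, and 27 of them (34.6%) were enriched 2-fold in control cells, beside 23.9% of all features and 35.7% of the other features of at least 100 RPKM of RNA. Their median was 0.43 in Piwi knockdown and 0.37 in control cells, while the pooled value was -0.26 (-0.40 to -0.12) and -0.22 (-0.32 to -0.11), the opposite sign. Set against the Brm and Polybromo inputs, the pooled value was 0.92 (0.78 to 1.07) in Piwi knockdown and 1.02 (0.89 to 1.15) in control cells. The pooled reads of the 588 other features of at least 100 RPKM gave 0.75 and 1.18 with the Osa inputs. With the Brm and Polybromo inputs they gave 1.25 and 1.30, so the set's pooled value was lower with either input. Feature by feature, the 445 of the 588 that passed the floor had medians of 0.38 and 0.40 with the Osa inputs, close to the set.

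Single genes ran over a wide range in the Osa data, here given for the 78 that passed the floor. RpS9 at 4.01, RpS19b at 3.96, RpS15Aa at 3.69, RpL30 at 3.58 and RpL11 at 2.76 were highest in control cells, and RpL26 at -3.97, RpS24 at -3.74, RpS27A at -3.52, RpS10a at -3.20 and RpL22 at -3.20 were lowest. RpL26 had 15 ChIP and 0 input reads in Piwi knockdown cells, and 0 and 32 in control cells. RpS9 had 17 and 14 reads in Piwi knockdown cells, and 28 and 1 in control cells. In the Osa inputs 23 genes had 0 reads in Piwi knockdown and 17 in control cells, where the median gene had 5 and 14 reads, a spread that the counting intervals do not cover. The change on Piwi knockdown passed 2-fold higher in 30 of the 78 genes and lower in 19, beside 29.0% and 27.1% of features, and was largest for RpL26 at 8.32, RpL18 at 6.21 and RpS24 at 5.79, and lowest for RpS19b at -5.37 and RpL11 at -5.26. The pooled change was -0.04 (-0.22 to 0.13) and the median change 0.38.

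**Figure D4:**
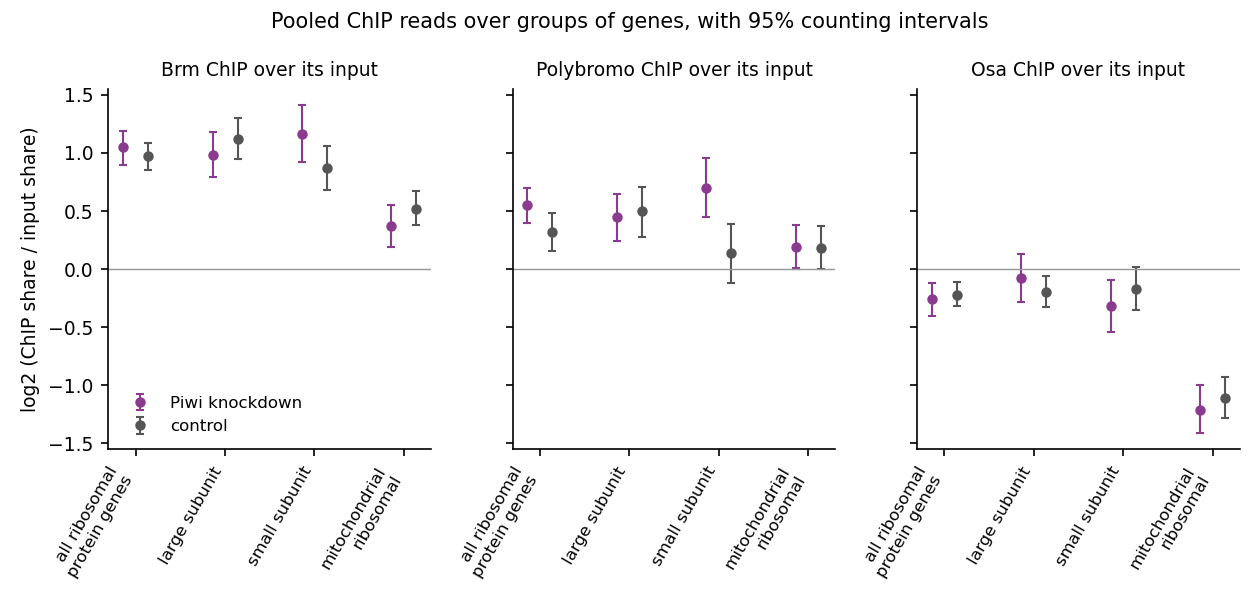
Log2 of the share of ChIP reads over the share of input reads, pooled over all 92 ribosomal protein genes, the large-subunit and small-subunit genes of at least 1000 RPKM and the mitochondrial ribosomal protein genes, in Piwi knockdown (purple) and control cells (grey), each against its own input, with 95% counting intervals. The Brm values of the 92 genes are 1.05 and 0.97, the Polybromo values 0.55 and 0.32 and the Osa values -0.26 and -0.22.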

How the data were processed

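RPKM values of 35502 features were deposited by the authors. The submitters' processing notes name Bowtie2 2.2.4 and the dm6 build, and the counting rule is not given in the sources used here. Of the RNA columns, 4 matched no sample and were left out, and the 4 ovary libraries were not analysed here. Accessions were matched to symbols with the RefSeq table of Release 6 (34925 matched, 404 did not) and RPKM summed per gene. Read totals and reads per feature were recovered as the numbers that make RPKM whole (within 0.01 of a read); the RNA totals are the reads on the listed features, and 2 reads count as 1 pair. No test was possible with 1 library per group; the steps were tested on simulated data. Intervals, and the bound of 3 read pairs for an RNA count of 0, cover counting error only. ChIP offsets were the 5th percentile of input values above 0. Named genes are the highest and lowest 5 (ChIP changes 3, other lists up to 2), related gene families, genes at 0 and genes past 2-fold; the other genes past 1.5-fold, RpL28 and RpS9 read counts, and values by snoRNA were added after values were seen. Values of a few genes that this rule names are not reported here. The genes and lists were chosen with earlier results of these data known. Python 3.11.15, numpy 2.4.6, pandas 2.3.3 and scipy 1.17.1 were used. Alternatives are given in the closing section. No promoter or protein sequence was used.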

Additional observations from a re-analysis of the deposited data

How the results depend on the processing

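Of 69 alternatives over 12 results, 47 differed from the reported value by no more than its counting interval (counts of genes by 1.5 times) and 22 moved further. Without centring, the median RNA ratio was -0.05 in the Piwi, 0.12 in the Mael and -0.01 in the Brm knockdown; with transposon reads also out of the totals, an alternative added after the data were seen, it was 0.11 for Mael and 0.13 for Brm. Without a floor it was 0.21 for Mael and 0.27 for Brm, and with the highest transcript 0.28 for Mael. Called genes numbered 14 in the Mael and 9 in the Brm knockdown at 1.5-fold, 4 in the Brm knockdown without a floor, and 0 in both among genes of at least 1000 RPKM, also chosen after the data were seen. With the other input, the median enrichment was 0.09 for Brm, -0.40 for Polybromo and 1.49 for Osa, and the median change was 0.17 for Brm, against -0.28 with its own input, and -0.41 for Osa, against 0.38. With the highest transcript, Polybromo enrichment was -0.29 and the Brm change 0.02. With every feature of input above 0, the Brm change was 0.10 and Osa enrichment 0.24. The sign thus turned for Polybromo enrichment (other input, highest transcript), for the Brm change (all 3 of these settings) and for the Osa change (other input), but not for the Brm or Osa enrichment medians. The cause was not tested. No paired analysis was possible because each group holds 1 library. Depth limits the ChIP values of single genes.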

Other observations

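The position of the genes was looked at, and the limits of the windows were set, after the values were seen, so the following is a description with no test. Of the highly expressed ribosomal protein genes 6 lie on chromosome 4 or toward the centromere end of an arm (starting beyond 22000000 on arm 2L or the X or 23000000 on arm 3L, or before 5000000 on arm 2R or 3R, with none of these genes on the X or 3R): RpL21, RpL5, RpL10, RpL15, RpL38 and RpS3A. Their centred log2 ratios had a median of -0.25 in the Piwi, -0.22 in the Mael and 0.27 in the Brm comparison, beside -0.01, 0.26 and 0.34 over the other 74 highly expressed genes. None of the 6 lay above 0 in the Piwi or the Mael comparison, which share the EGFP library, and 5 of 6 did in the Brm comparison. Other tested genes in all of these windows had medians of 0.09, -0.06 and 0.04. The pattern in the Mael comparison depends on where the limits were set. Just outside them, RpL35A (arm 3R, 5465630) and RpL13A (arm 3R, 5624474) were at 0.76 and 0.90 in that comparison, and RpLP0 (arm 3L, 22075867) at 0.09. In the Piwi comparison RpL35A, RpL13A and RpLP0 were at -0.10, 0.03 and -0.02. RpL10 had 5720, 5718 and 6869 RPKM in the Piwi, Mael and Brm knockdowns, against 7036 in EGFP cells, and RpS3A, on chromosome 4, had 1387, 1405 and 1435 RPKM, against 1539.

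By chromosome arm, the 14 highly expressed genes on the X all lay above 0 in the Mael comparison, though RpS15Aa only at 0.00 (-0.03 to 0.02). Of the 74 highly expressed genes outside the windows above, 70 did. The median on the X was 0.31, and the medians of the other large arms ran over 0.13 on arm 2L to 0.25 on arm 3R. In the Brm comparison the medians of the arms lay between 0.33 and 0.39.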
